A study of Mus musculus with 12 samples.

Results

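The 40881 skipped exon events described here were listed in the fasted splicing table of this mouse liver RNA sequencing series but not in the refed one. The fasted table has 84592 events in all, and its refed counterpart has 75694. They were chosen by 2 readouts, which carry no test: an event's chromosome, strand, exon ends and flanking exon ends had no match in the refed table, and it had at least 10 reads in each of the 6 fasted libraries. Of the 50176 fasted events without a match, 40881 reached that minimum, and of the 69644 fasted events that reached it, 28763 were in both tables. The series holds 12 livers of BALB/cByJ mice, 3 in each of 4 groups. Fasted Lpin1+/+ (wild type) and fasted Lpin1-/- mice (fatty liver dystrophy, called FLD in the sample labels) were housed singly and starved for 16 h, and refed mice of both genotypes had the same fast and then 5 h of food. The Lpin1-/- mice carry the mutation in all their cells, so their livers come from animals with lipodystrophy as well as without hepatic lipin 1. The labels call the 3 libraries of a group biological replicates, and do not say whether a replicate number links mice across groups.

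A skipped exon event compares 2 ways of joining the same pair of flanking exons. In the inclusion form the middle exon lies between them, and in the skipping form the flanks are joined directly. The spliceosome makes this choice with the help of SR proteins, which mostly promote inclusion of the exons they bind, and hnRNPs, which often oppose it. Lipin 1 is a phosphatidate phosphatase of glycerolipid synthesis and also a coactivator of fasting genes with PPARalpha and PGC-1alpha. In fasted liver, hepatocytes oxidize fatty acids, make ketone bodies and take apart amino acids.

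The inclusion level below is the read count of the inclusion form over the sum of both forms, each divided by its effective length, in percent. Inclusion counts took reads on the exon itself as well as on its junctions. The level of an exon inside a longer annotated exon, or in an intron, therefore cannot be told apart from reads of that longer exon or of unspliced RNA. The rarer form of an event is the one with fewer reads over the 6 fasted libraries.

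The exons below are those of the largest differences between genotypes whose sequence could be read from an annotated coding exon of GENCODE M21 (GRCm38, written 5′ to 3′ on the strand of the gene). They are shown because they carry the changes described later: the first 3 gained inclusion in fasted Lpin1-/- liver and the other 5 lost it. The Chka exon lies at chr19:3871003-3871062 (+), is 60 bases long and is an annotated exon. The Cabin1 exon, at chr10:75729026-75729135 (-), is an annotated exon of 110 bases. In both, capitals mark the stop codon at which the coding sequence of an annotated transcript ends inside the exon, at base 43 of the Chka exon and at base 85 of the Cabin1 exon. The other 6 lie inside longer annotated exons, and capitals mark the 2 bases next to the exon where the annotated exon continues on that side. Their positions are chr17:26253980-26254044 (+) for Luc7l, chr11:98771497-98771525 (-) for Nr1d1, chr4:63345423-63345486 (+) for Orm1, chr5:120481610-120481678 (+) for Sds, chr2:181587729-181587851 (-) for Zfp512b and chr3:89997545-89997565 (-) for Hax1.
Chka: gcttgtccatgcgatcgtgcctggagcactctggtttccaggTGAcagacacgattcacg
Cabin1: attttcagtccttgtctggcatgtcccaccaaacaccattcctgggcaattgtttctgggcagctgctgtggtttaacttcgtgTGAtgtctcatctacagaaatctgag
Luc7l: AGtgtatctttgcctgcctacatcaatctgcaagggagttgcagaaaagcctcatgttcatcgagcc
Nr1d1: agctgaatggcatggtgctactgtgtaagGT
Orm1: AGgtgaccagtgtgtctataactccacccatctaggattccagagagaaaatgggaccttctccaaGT
Sds: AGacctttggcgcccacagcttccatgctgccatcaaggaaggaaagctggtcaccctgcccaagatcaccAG
Zfp512b: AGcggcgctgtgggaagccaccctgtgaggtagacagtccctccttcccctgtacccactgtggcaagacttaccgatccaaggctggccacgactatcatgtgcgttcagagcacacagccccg
Hax1: AGgtcctgagtcagaaacacctgGT

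AG before an exon and GT after it are the usual splice site bases. Among the events listed only in the fasted table, 3398 different exons lay at least 2 bases inside an annotated exon on both sides, and 81.5% of them had both AG before and GT after. AG stood before 93.6% of these exons and GT after 86.6%, while AG made up 7.67% and GT 5.62% of all 2-base steps in the same transcripts. In the 581 exons of this kind with a called event, 74.9% had both pairs. Of 1523 such exons listed in both tables, 89.2% had both. Of the exons printed above, Orm1 and Hax1 have AG and GT, and the Sds exon has AG on both sides. These pairs describe the exon ends that the tables list.

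Listing only in the fasted table covered 3 situations. For 8048 events in 2958 genes, the same exon and the same inner splice junctions were listed in the refed table too, and only the outer end of a flanking exon differed. For 6253 events the exon was listed in the refed table with another junction. For 26580 events in 7021 genes the exon was in no refed event. Thus 8048 of the 40881 differ from a refed event only in how a flanking exon was drawn, and they allow the same junctions to be followed into refed liver.

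The members were mostly rare departures from 1 dominant form. The median event had 0.67 reads of the rarer form per library, or 4 reads over all 6 libraries, against a median of 371 reads of both forms. In the events listed in both tables the median was 2.33 reads per library. The rarer form was skipping in 32568 of the 40881 events. It was seen in 1 library only in 17369 events and in all 6 libraries in 6032. Events at the minimum itself looked like their neighbours: 391 events with a lowest count of 10 had a median inclusion level of 93.8% in Lpin1+/+ and 84.7% in Lpin1-/-, and 411 left out with a lowest count of 9 had 95.5% and 83.7%.

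They lay in 7622 gene symbols, 98.7% of them in protein-coding genes, with a median of 3 events a gene. Alb, the most abundant transcript of these livers, held 528 of them. It was followed by Mug1, a plasma protease inhibitor, with 163, Cth, an enzyme of cysteine synthesis, with 129 and Trf, the iron carrier transferrin, with 109. The 221 genes with more than 20 events held 21.1% of all. The median exon was 118 bases long, and 35.7% had a length divisible by 3, against 39.6% in events listed in both tables.

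Compared with GENCODE M21, both forms were annotated in 1576 events. Only the skipping form was annotated in 9817, so that the pair of inclusion junctions was not completely annotated, and only the inclusion form in 11005. Neither form was complete in the annotation for 18483. By position, 18881 events had an annotated exon as their middle exon, 11118 had one inside a longer annotated exon, 4895 had one partly over an annotated exon and 5987 had one wholly in an intron.

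Reads of the rarer form were seen more often in the 3 fasted Lpin1-/- livers. In the fasted Lpin1+/+ libraries 13984, 12430 and 12925 of the 40881 events had such a read, or 34.2%, 30.4% and 31.6%. In the fasted Lpin1-/- libraries the numbers were 21980, 25241 and 20154, or 53.8%, 61.7% and 49.3%. The 2 genotypes did not overlap, and with 3 libraries a group no exact permutation test of a single value can pass 0.05. The rarer form was seen only in Lpin1-/- libraries in 20272 events and only in Lpin1+/+ libraries in 4785. Since the fasted table lists an event once any of its 6 libraries shows it, these counts are part of what chose the events.

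Total counts overlapped between the genotypes. Over these events the Lpin1+/+ libraries had 557999513, 466735802 and 397793918 counts and the Lpin1-/- libraries 436702614, 522123496 and 538788109, where a read over several events counts in each. The rarer forms took 0.60, 0.73 and 0.81 of every 1000 counts in Lpin1+/+ and 1.38, 1.20 and 0.96 in Lpin1-/-. Events listed in both tables had a read of the rarer form in 52.3% to 57.6% of events in Lpin1+/+ and in 64.1% to 73.9% in Lpin1-/-.

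**Figure D1:**
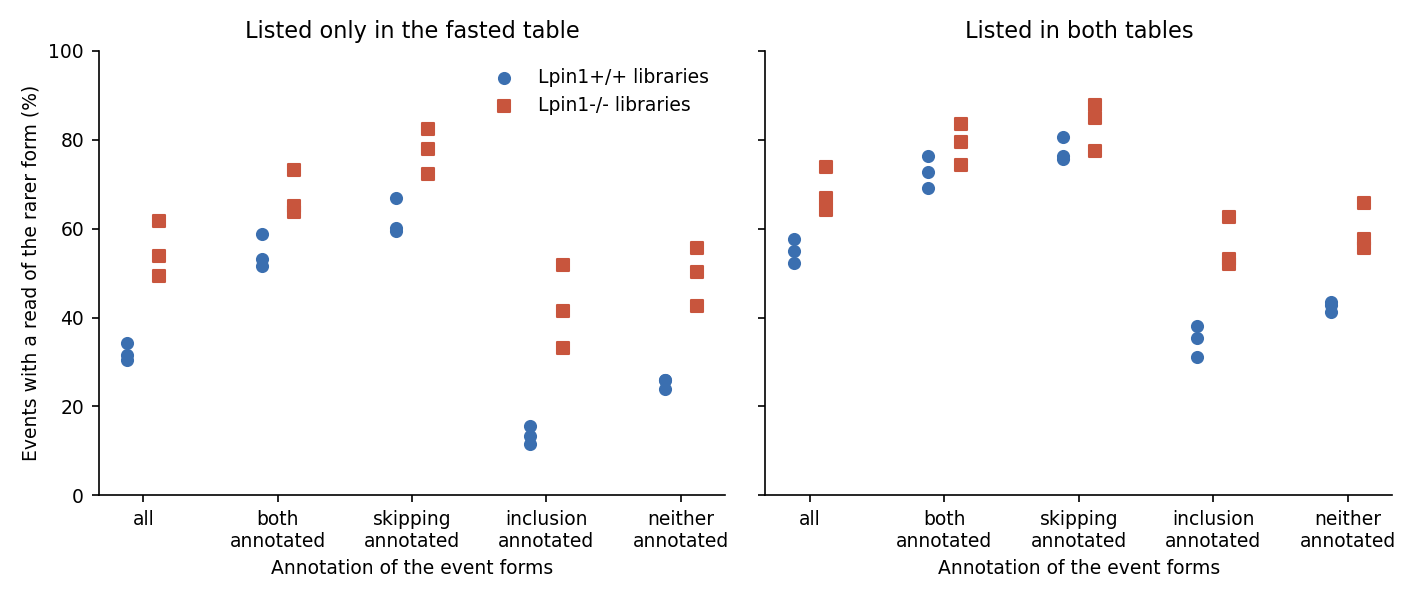
Share of events (vertical axis, percent) with at least 1 read of the rarer form in each fasted library, by the annotation of the event's forms (horizontal axis), for events listed only in the fasted table (left) and in both tables (right). Each point is 1 library, circles Lpin1+/+ and squares Lpin1-/-. Over all events listed only in the fasted table the Lpin1+/+ libraries sit between 30.4% and 34.2% and the Lpin1-/- libraries between 49.3% and 61.7%.

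The knockout and the make-up of the tissue were checked on RPKM, reads scaled to gene length and to the mapped reads of a library. Lpin1 was at 22.0, 0.73 and 1.76 RPKM in fasted Lpin1+/+ and at 0.060, 0.057 and 0.037 in fasted Lpin1-/-. In refed Lpin1+/+ it was at 2.92, 0.78 and 2.76, and in refed Lpin1-/- at 0.0057, 0.024 and 0.0096. Thus every Lpin1-/- library was below every Lpin1+/+ library, and 1 fasted Lpin1+/+ library stood far above the other two. The 8 hepatocyte markers summed to between 34551 and 78075 RPKM in the 12 libraries. Skeletal muscle markers stayed at or below 0.23 RPKM, and the 3 exocrine pancreas markers summed to 12.4 to 40.3 RPKM in fasted Lpin1+/+, 11.3 to 16.9 in fasted Lpin1-/- and 6.00 to 27.4 in refed liver, with Prss1 at 0 throughout.

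All 6 stellate cell markers were measured and summed to 80.5 to 186 RPKM in fasted Lpin1+/+ and 220 to 315 in fasted Lpin1-/-, with none of the 6 past the threshold alone and none at 0 in all libraries. The 5 cholangiocyte markers reached 451 RPKM in 1 fasted Lpin1-/- library, against 32.1 to 45.8 in fasted Lpin1+/+ and 24.9 in the lowest fasted Lpin1-/- library. Sums for Kupffer cells, endothelial cells, T and B cells, neutrophils and erythroid cells overlapped between the genotypes in fasted liver, though the endothelial gene Lyve1 was called higher and the hepatocyte gene Apob lower in Lpin1-/-. In whole liver, fewer cells of a type and less RNA per cell cannot be told apart. The part of these cell types in the splicing results was not tested.

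The question put to fasted liver was in which events the inclusion level differed between Lpin1-/- and Lpin1+/+. Of the 40881 events, 3968 (9.71%) in 1571 genes were past an adjusted p of 0.05, with inclusion higher in Lpin1-/- in 1394 and lower in 2574. Over all 69644 fasted events tested, 11.1% were called, 3.99% with higher and 7.13% with lower inclusion. The share among events listed only in the fasted table was thus below the background. The median difference of a called event was 4.39 percentage points, and 1299 differed by at least 10. The test was a quasi-binomial model of both read counts, with its spread moderated over all events by limma and with Benjamini-Hochberg adjustment over all 69644.

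How many events were called followed how many reads the rarer form had. None of the 22208 events with a mean below 1 read of the rarer form per library was called by the quasi-binomial test, in which 165 had an unadjusted p below 0.05. Limma on the log2 ratio of the forms called 308 of them, and 8 with weights for read numbers. From 1 to 2 reads 1.07% were called, from 2 to 5 reads 15.6%, from 5 to 20 reads 34.3% and from 20 reads on 43.9%. In the events listed in both tables the same steps gave 0.65%, 11.5%, 27.6% and 36.8%. The rarer form had a mean of at least 5 reads in 19.9% of the events listed only in the fasted table and in 34.9% of those in both. The lower share overall thus stood beside a higher share within each of these 4 steps of read number. The rarer form was seen only in Lpin1-/- libraries in 20272 of the events listed only in the fasted table, and only in Lpin1+/+ libraries in 4785. In events listed in both tables these counts were 6940 and 2721. Reads of the rarer form were part of what chose the events. The higher shares within steps are therefore not independent of that choice.

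**Figure D2:**
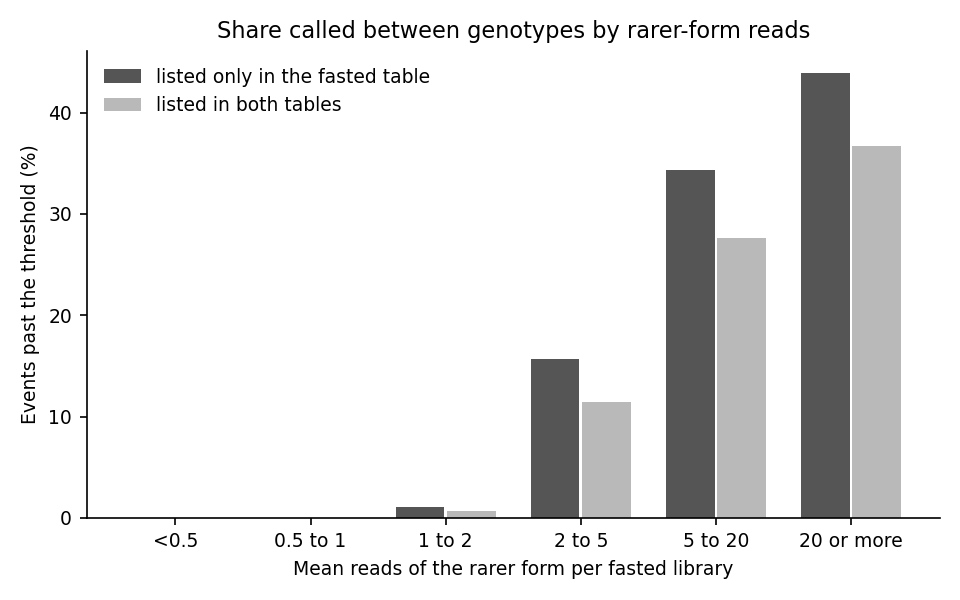
Percent of events past the adjusted p threshold between genotypes in fasted liver (vertical axis) by the mean reads of the rarer form per fasted library (horizontal axis). Dark bars are events listed only in the fasted table and pale bars events in both tables; the dark bars reach 43.9% and the pale bars 36.8% at 20 or more reads.

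The count of called events depended on single libraries and on the test. It was 2180, 2609 and 2474 without 1 of the 3 fasted Lpin1+/+ libraries in turn, and 3262, 2601 and 4722 without 1 of the 3 fasted Lpin1-/- libraries. With limma on the log2 ratio it was 3984, and with weights 1334.

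The called events split by annotation. Where only the skipping form was annotated, 1665 of 9817 events were called, and in 1285 of them inclusion was higher in Lpin1-/-. Where only the inclusion form was annotated, 501 of 11005 were called, and in 497 the exon was skipped more in Lpin1-/-. Where neither was annotated, 1640 of 18483 were called, 1585 of them with more skipping. Where both forms were annotated, 162 of 1576 were called, 50 higher and 112 lower. The form not completely annotated thus had the higher share in fasted Lpin1-/- liver in most called events with 1 annotated form. As inclusion counts hold reads on the exon itself, a gain of inclusion was not placed on unannotated junctions. Events in both tables split alike: 1048 of 1287 called were higher where only skipping was annotated, and 921 of 938 were lower where only inclusion was annotated. The events listed only in the fasted table were therefore not set apart by this split.

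**Figure D3:**
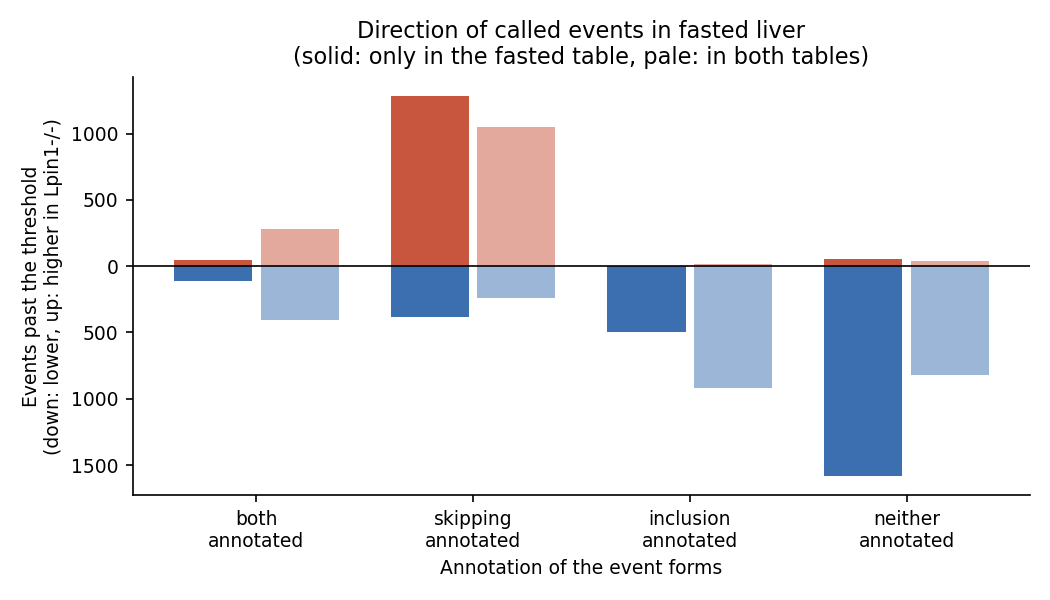
Number of called events in fasted liver with higher (upward bars) or lower (downward bars) inclusion in Lpin1-/-, by the annotation of the event's forms. Solid bars are events listed only in the fasted table and pale bars events in both tables. With only the skipping form annotated 1285 events are higher and 380 lower; with neither form annotated 55 are higher and 1585 lower.

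Exons in an intron and exons of low inclusion mostly gained. Of 1014 called events with the exon wholly in an intron, 917 were higher in Lpin1-/-. Of the 7690 events with a mean inclusion level up to 10%, 1188 were called and 1091 of these were higher. Of the 30497 with a level over 90%, 1911 were called and 1874 of these were lower. The 2694 events between these levels, in which both forms were common, had 869 calls, 266 higher and 603 lower, with a median difference of 27.0 percentage points. Events in both tables split alike. There 724 of 803 called events with the exon in an intron were higher. At a level up to 10%, 933 of 1032 called were higher, and over 90%, 1655 of 1705 called were lower. The events listed only in the fasted table were thus not set apart by these splits.

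Of the 3968 called events, 3349 did not overlap between genotypes, against 6692 of 7746 called over all fasted events and 3343 of 3778 called in both tables. Lack of overlap was thus no more common in the events listed only in the fasted table. Called events without overlap between genotypes and with a mean of at least 5 reads of the rarer form per library numbered 2798 in 1122 genes. Of these, 1049 were higher and 1749 lower, with no limit on the size of the difference. The largest gain was in Chka, choline kinase alpha, which starts phosphatidylcholine synthesis. The 60-base exon shown above was at 4.76%, 8.27% and 6.12% in fasted Lpin1+/+ and at 85.9%, 90.4% and 73.3% in fasted Lpin1-/-. In reads, 8, 9 and 7 carried it against 85, 53 and 57 that skipped it in Lpin1+/+, and 80, 89 and 119 carried it against 7, 5 and 23 in Lpin1-/-. The main form was thus exchanged in all 3 knockout livers (log2 odds ratio 6.02 ± 0.75 SE, adjusted p = 2.5e-13). Chka itself rose from a mean of 11.8 to 26.9 RPKM (log2 difference on log2(RPKM + 1) 1.12 ± 0.28 SE, limma adjusted p = 0.017).

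In refed liver the same Chka exon was listed with another junction. There it was at 6.76%, 10.2% and 9.19% in Lpin1+/+ and at 6.87%, 4.44% and 14.1% in Lpin1-/- (adjusted p = 0.90). The refed genotypes overlapped. Because the junction differs, the fasted and refed levels of this exon are given side by side and were not compared. For other exons named below and listed with another junction, the refed level could lie far from the fasted one. Mean levels in refed Lpin1+/+ and Lpin1-/- were 0.20% and 0.24% for Mgst1, and 0.40% and 0.35% for 1110008F13Rik. They were 0.26% and 0.091% for Abcb4, 99.0% and 97.5% for Srsf4 and 98.8% and 98.0% for Nr1h4. Arntl was at 100% and 99.8%. Such levels describe the listed event and not all use of the exon.

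Map2k4, the kinase that activates JNK, had a 191-base intronic exon at chr11:65782522-65782712 that was not seen in fasted Lpin1+/+. No read carried it there, against 35, 15 and 26 that skipped it, and in Lpin1-/- it was at 82.1%, 63.1% and 55.3%. The fitted log2 odds ratio was 10.21 ± 1.34 SE (adjusted p = 5.03e-12), which depends on the 0.5 added to counts of 0. Map2k4 RPKM was alike in mean, 9.28 and 8.80 (limma adjusted p = 0.98).

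Luc7l codes for a partner of U1 snRNP, the particle that finds 5′ splice sites. Its 65-base exon was at 6.01%, 19.5% and 10.5% in fasted Lpin1+/+ and at 75.0%, 85.8% and 82.1% in Lpin1-/-, with no overlap (adjusted p = 2.43e-09). Luc7l RPKM rose too, from 6.99 to 11.6 (log2 difference 0.65 ± 0.17 SE, limma adjusted p = 0.023). Cabin1, an inhibitor of calcineurin, had its annotated exon at 2.33%, 0% and 0% in Lpin1+/+ and at 63.7%, 58.6% and 68.1% in Lpin1-/- (adjusted p = 7.84e-06).

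The other gains of this rank were in 6 genes. Thap2 codes for a THAP zinc finger protein, and its exon went from 25.7% ± 9.53 (SD, n = 3) to 91.6% ± 1.36. Zfp410, a zinc finger transcription factor, went from 3.22% ± 1.90 to 64.4% ± 4.89. Nuak2, a kinase related to AMPK, went from 8.20% ± 7.88 to 68.2% ± 23.4. Chd1, a chromatin remodeller, went from 16.7% ± 10.6 to 76.3% ± 19.5. Mettl17, a factor of the mitochondrial ribosome, went from 7.18% ± 1.02 to 66.8% ± 19.3, and the gene model Gm45531 from 29.4% ± 24.9 to 90.6% ± 10.3. All had an adjusted p below that of Gm45531, 3.77e-05, and in none did the 2 genotypes overlap. Of these, Zfp410, Nuak2 and Mettl17 had the exon inside a longer annotated exon and the others in an intron.

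The largest loss was in Ttc39c, which codes for a protein with tetratricopeptide repeats. Its 122-base intronic exon was at 93.0%, 100% and 100% in fasted Lpin1+/+ and at 3.00%, 5.33% and 4.65% in Lpin1-/- (adjusted p = 2.98e-11). The difference lay in the skipping reads, which numbered 1, 0 and 0 in Lpin1+/+ and 162, 159 and 66 in Lpin1-/-. Inclusion reads were 37, 22 and 13 against 14, 25 and 9. Ttc39c RPKM did not pass the test, with means of 118 and 113.

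Nr1d1 codes for REV-ERBalpha, the clock repressor. No read in the 3 fasted Lpin1+/+ libraries skipped its 29-base exon, and 54, 156 and 81 did in Lpin1-/-, where the inclusion level was 28.7%, 17.1% and 32.2%. Sds, serine dehydratase, which feeds serine into glucose synthesis, had its 69-base exon at 100%, 100% and 74.9% in Lpin1+/+ and at 5.73%, 13.2% and 43.7% in Lpin1-/-. Skipping reads of Sds rose from 0, 0 and 2 to 1111, 388 and 64 while its RPKM rose from 192 to 1046 (log2 difference 2.51 ± 0.31 SE, limma adjusted p = 5.83e-04).

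Orm1, an acute phase protein, had its 64-base exon at 100%, 85.6% and 100% in fasted Lpin1+/+ and at 16.8%, 15.4% and 34.0% in Lpin1-/- (adjusted p = 2.21e-04), with 10, 23 and 26 inclusion reads in Lpin1+/+. Orm1 has close copies in the mouse genome, so reads may have been shared among them. Hax1, which codes for a mitochondrial protein that protects cells from death, had its 21-base exon at 97.9% ± 3.72 in Lpin1+/+ and 29.0% ± 2.91 in Lpin1-/-. Ephx1, microsomal epoxide hydrolase, went from 94.3% ± 9.86 to 14.7% ± 3.60. Its inclusion reads were 43, 34 and 14 in Lpin1+/+ and 9, 25 and 14 in Lpin1-/-. Skipping reads of Ephx1 were 2, 0 and 0 against 12, 25 and 25, at means of 266 and 203 RPKM. The level thus describes the listed event and not the whole mRNA of the gene.

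The remaining losses of this rank were Trmt2a, a tRNA methyltransferase, from 96.0% ± 6.91 to 22.9% ± 6.67, Anp32a, a histone-binding protein, from 93.0% ± 3.15 to 21.1% ± 6.52, Zfp512b from 100% in all 3 to 29.8% ± 10.4, and 1110008F13Rik from 79.0% ± 22.3 to 3.55% ± 1.62. For 1110008F13Rik, inclusion reads in fasted Lpin1+/+ were 19, 27 and 18 at a mean of 226 RPKM. None of these 10 losses overlapped between genotypes. Neither form of the event was annotated in these genes, except in Trmt2a, where only the skipping form was. Of these 10 genes, only Sds was past the threshold in RPKM between fasted genotypes. Ttc39c, Ephx1, Nr1d1, Trmt2a and Sds also had the largest differences among events whose exon is in no refed event.

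**Figure D4:**
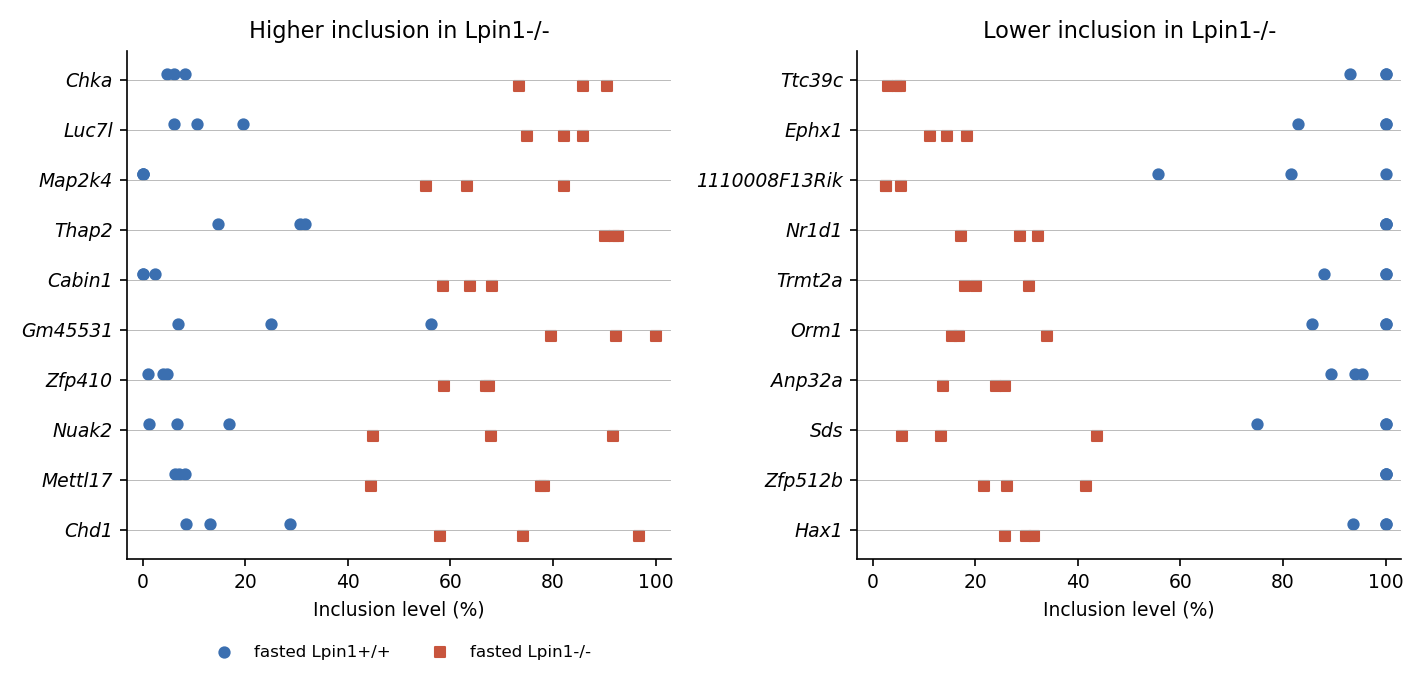
Inclusion level (horizontal axis, percent) of the exon with the largest gain (left) and loss (right) in each of 20 genes, in every fasted library. Circles are Lpin1+/+ and squares Lpin1-/-, 3 libraries each. In every row the genotypes are apart: Chka lies at 4.76% to 8.27% against 73.3% to 90.4%, and Nr1d1 at 100% against 17.1% to 32.2%.

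Factors of the splicing machinery held events of both directions. Of 182 events in 31 of 35 SR protein and SR kinase genes, 22 were called (12.1%), 16 higher and 6 lower. Beside Luc7l these included Srek1, an SR-related protein, whose annotated exon went from 33.3% ± 12.4 to 92.7% ± 12.7, Srsf4 from 39.9% ± 7.95 to 79.4% ± 6.89 and Clk4, a kinase of SR proteins, from 21.2% ± 3.24 to 58.8% ± 10.9. Of 312 events in 57 of 74 hnRNP and other RNA-binding genes, 28 were called (8.97%), 14 in each direction. Rbm5 went from 87.9% ± 10.8 to 34.4% ± 9.21, Hnrnpdl from 42.2% ± 4.83 to 9.90% ± 4.68 and Hnrnph3 from 65.8% ± 4.40 to 38.3% ± 5.26, while Rbm39 went from 51.2% ± 12.6 to 92.6% ± 7.72. Hnrnpdl RPKM was at 17.3 and 46.0 (log2 difference 1.35 ± 0.19 SE, limma adjusted p = 0.0013).

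Of 270 events in 65 of 86 core spliceosome genes, 19 were called (7.04%), 11 higher and 8 lower. U2af1l4, a relative of the small U2AF subunit that reads the 3′ splice site, fell from 93.2% ± 4.67 to 37.4% ± 11.1. Snrnp70, the U1 70K protein, rose from 6.56% ± 3.62 to 44.0% ± 12.4 and Prpf38b from 2.03% ± 2.23 to 31.4% ± 15.7. Puf60, a partner of U2AF, fell from 99.4% ± 1.10 to 79.0% ± 9.56. Beside the background of 11.1%, the share of the SR protein list lay near it, and those of the hnRNP and core spliceosome lists lay below it. Their median event had 0.67 to 0.83 reads of the rarer form per library.

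Phospholipid and triglyceride synthesis, the pathway of lipin 1, had 34 called among 282 events in 31 of 45 genes (12.1%), 14 higher and 20 lower. This share is near the 11.1% over all events. Among events with at least 5 reads of the rarer form, 32 of 63 were called (50.8%). Of all events listed only in the fasted table with that many reads, 38.4% were called. Chka had the largest difference among the 34. Pcyt2, which makes CDP-ethanolamine, fell from 60.0% ± 12.7 to 8.56% ± 7.60. Chkb, the other choline kinase, fell from 93.9% ± 4.24 to 51.2% ± 8.12, and Cept1, which joins the head group to diacylglycerol, from 88.0% ± 5.36 to 68.5% ± 2.63. Both choline kinase genes thus had a called exon, in opposite directions of inclusion. Neither form of the Pcyt2 and Chkb events was annotated.

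Beside the background of 11.1%, the lists of fatty acid oxidation, amino acid catabolism, circadian clock, plasma protein and P450 genes had shares from 15.8% to 19.6%. In fatty acid oxidation, ketogenesis and PPARalpha genes, 140 of 715 events were called (19.6%), 70 in each direction, and RPKM was lower in 33 and higher in 2 of 62 genes. Acaa1a and Acaa1b, peroxisomal thiolases with near-identical copies, went from 68.7% ± 23.2 to 8.36% ± 3.15 and from 80.4% ± 9.67 to 36.7% ± 8.46. Cyp4a32, a fatty acid hydroxylase with close copies, went from 93.9% ± 5.32 to 26.9% ± 2.56, and Crat, carnitine acetyltransferase, from 19.0% ± 3.06 to 50.1% ± 11.5. Neither form of the Acaa1a, Acaa1b and Cyp4a32 events was annotated.

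Amino acid catabolism and the urea cycle had 329 of 1745 events called (18.9%), 77 higher and 252 lower. Hgd and Hpd, enzymes of tyrosine breakdown, fell from 75.3% ± 19.5 to 17.5% ± 3.60 and from 82.2% ± 12.1 to 24.96% ± 10.8. Gpt, alanine aminotransferase, was at 99.7%, 100% and 100% in Lpin1+/+ and at 45.6%, 38.6% and 85.9% in Lpin1-/-. Secreted plasma proteins had 411 of 2544 called (16.2%), 44 higher and 367 lower. Ahsg, fetuin-A, fell from 84.8% ± 8.35 to 17.6% ± 12.8, Igf1, the growth factor downstream of growth hormone, from 92.1% ± 8.70 to 26.8% ± 14.7 and Hp, haptoglobin, from 92.3% ± 9.99 to 33.6% ± 10.5. Neither form was annotated for the Hgd, Hpd, Gpt, Ahsg, Igf1 and Hp events. In fasted Lpin1+/+, Ahsg had 502, 368 and 112 inclusion reads at a mean of 6987 RPKM. Hp had 33, 59 and 61 at a mean of 5304 RPKM. These levels describe the listed event and not the whole mRNA of the gene.

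Cytochrome P450 and conjugation enzymes had 173 of 1098 called (15.8%), 47 higher and 126 lower, and many of these genes have near-identical copies. Cyp2d9 was at 98.3%, 96.3% and 95.2% in Lpin1+/+ and at 19.5%, 30.5% and 70.7% in Lpin1-/-, and Mgst1 and Cyp3a25 fell by 34.9 and 33.6 points. The lists of fatty acid, amino acid, plasma protein and P450 genes had a median of 1.00 to 1.67 reads of the rarer form per library, against 0.67 over all these events. Among events with at least 5 such reads, 55.8%, 52.9%, 41.0% and 39.2% of them were called, against 38.4% over all. The part of read number in the shares of these lists was not tested.

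Cholesterol and bile acid metabolism had 42 of 420 events called (10%), 8 higher and 34 lower. Over all events 11.1% were called, 3.99% with higher and 7.13% with lower inclusion. A 3-base exon of Cyp27a1, which oxidizes the sterol side chain, fell from 85.7% ± 6.72 to 38.2% ± 6.24 and Srebf1, the regulator of lipid synthesis, from 98.7% ± 2.31 to 61.6% ± 13.6. Nr1h4, the bile acid receptor, rose from 15.2% ± 4.16 to 45.5% ± 9.03 at an intronic exon while its RPKM fell from 52.2 to 18.4 (limma adjusted p = 8.36e-04). Abcb4, the phosphatidylcholine exporter, rose from 5.47% ± 5.08 to 25.2% ± 7.04. Neither form of the Cyp27a1, Srebf1 and Abcb4 events was annotated.

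Circadian clock genes had 10 of 58 events called (17.2%), 3 higher and 7 lower, in 6 genes, against 11.1% over all events. Arntl, the activator BMAL1, had an exon at 100% in all 3 Lpin1+/+ libraries and at 29.9%, 54.5% and 81.3% in Lpin1-/-, and Per1 went from 100% to 81.8% ± 12.4. Nr1d2, the close relative of Nr1d1, rose from 0.63% ± 0.24 to 11.5% ± 3.65. Insulin and MAP kinase signalling had 19 of 295 called (6.44%), 17 higher and 2 lower, a share below the 11.1% over all events, of which 3.99% were higher and 7.13% lower. Beside Map2k4, Tsc1, a brake on mTORC1, rose from no reads in Lpin1+/+ to 26.5%, 12.1% and 3.94%. Shc1, an adaptor of growth factor receptors, rose from 1.92% ± 1.20 to 14.2% ± 10.4. Foxo3, a fasting transcription factor, was at 18.4%, 71.5% and 51.1% against 86.5%, 66.2% and 71.3% (adjusted p = 7.30e-04), and its genotypes overlapped.

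Of the ESRP2 targets named by the study, 10 of 11 genes held 42 events, of which 2 were called (4.76%). Vegfa fell from 78.6% ± 8.25 to 52.7% ± 6.62 and Csnk1d rose from 0.12% ± 0.11 to 1.55% ± 0.80. The study chose this list on these samples, so its count is not independent evidence.

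The host genes were followed in RPKM, as the level of a gene sets how many events can be seen. Of 1535 measured genes with a called event, 346 (22.5%) were past the threshold between fasted genotypes, 107 higher and 239 lower in Lpin1-/-. Over all 11507 genes tested it was 18.8%. The median log2 difference was -0.17 in these host genes and -0.14 over all genes. After each library was rescaled by its median ratio, 159 were higher and 157 lower, and the rescaling shifted the median over all genes to 0.01. The excess of lower genes was thus not kept under that scaling. The count was 149 in a fit of only the 6 fasted libraries, and 164 and 227 without fasted Lpin1+/+ replicate 3 or fasted Lpin1-/- replicate 1.

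Whether host genes were less expressed in the refed state, whose table lacks these events, was asked within each genotype. In Lpin1+/+, 126 of 7382 host genes (1.71%) differed between refed and fasted liver, 108 higher and 18 lower, against 1.72% of all genes. In Lpin1-/-, 1536 (20.8%) differed, 1326 higher and 210 lower after refeeding, against 20.7% of all genes. Both shares lie next to the background. The median log2 difference of host genes was 0.16 in Lpin1+/+ and 0.30 in Lpin1-/-, against 0.19 and 0.25 over all genes. With median ratio scaling the splits were 23 higher and 23 lower in Lpin1+/+ and 598 higher and 438 lower in Lpin1-/-.

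The Lpin1+/+ count was unstable. It was 55 with a replicate block and 0 in a limma fit of only the 6 libraries compared, where 737 host genes had an unadjusted p below 0.05. It ranged from 14 without fasted Lpin1+/+ replicate 2 to 147 without fasted Lpin1-/- replicate 1, and was 35, 22, 20, 80, 63 and 52 without fasted Lpin1+/+ replicate 3, refed Lpin1+/+ replicates 1, 3 and 2 or refed Lpin1-/- replicates 2 and 3. The Lpin1-/- count was 840, 1009, 1021, 699 and 902 without fasted replicates 1 and 2 or refed replicates 1, 2 and 3 of that genotype.

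The 8048 events with the same exon and inner junctions in the refed table were then read in refed liver. Their refed listing is part of how they were picked, but their refed inclusion levels are not. Of 7986 with enough reads there, 614 (7.69%) were called between refed genotypes, 166 higher and 448 lower in Lpin1-/-, and over all 65231 refed events 4.03% were called. The 8048 events had a median of 3.33 reads of the rarer form per fasted library, against 1.17 over all fasted events. The part of read number in the share of 7.69% was not tested. In the same 7986 events, a read of the rarer form was seen in 4443 to 4654 per fasted Lpin1+/+ library, 5600 to 6117 per fasted Lpin1-/- library, 4676 to 4825 per refed Lpin1+/+ library and 5453 to 6005 per refed Lpin1-/- library. Both Lpin1-/- groups thus lay above both Lpin1+/+ groups. The refed Lpin1+/+ libraries lay just above the fasted ones, and the Lpin1-/- libraries overlapped between the feeding states. The count of 614 was 179 with limma on the log2 ratio, and 405 and 353 without 1 refed Lpin1+/+ library, at list position 2 or 3.

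Of 1371 such events called in fasted liver and tested in refed liver, 432 (31.5%) were called there too, 424 of them in the same direction, and 1229 (89.6%) had a difference of the same sign. The median absolute difference of the 1371 was 3.01 points in fasted liver, by which they were called, and 0.44 points in the same direction in refed liver. Igf1, at chr10:87859509-87859610 (+), was alike in both states: 90.3%, 94.7% and 89.6% in refed Lpin1+/+ and 18.1%, 30.6% and 27.6% in refed Lpin1-/-, a difference of -66.1 points (adjusted p = 2.21e-08) against -65.3 in fasted liver. Pcyt2 was at 63.9%, 100% and 86.7% against 3.79%, 5.48% and 20.2% after refeeding (adjusted p = 3.87e-07). Hnrnpdl differed by -27.7 points and Cyp2d9 by -43.1 points in refed liver, both called. Orm1, Anp32a and Cabin1 were called in refed liver too, by -32.2, -20.2 and 12.5 points, against -73.1, -71.8 and 62.7 points in fasted liver. Zfp410, at 58.8% to 67.5% in fasted Lpin1-/-, was at 1.26% to 2.63% in refed Lpin1-/- (refed adjusted p = 0.58).

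A called difference in 1 state and not in the other does not show that the states differ, so the difference between them was tested over all 12 libraries. Genotype by feeding was called in 77 of the 7986 events (0.96%) in 53 genes, 40 with a positive and 37 with a negative term, against 1.02% of all 36433 paired events, so the share was no higher than the background. The term is the log2 ratio of the refed odds ratio to the fasted one. The 5 with the smallest p were Slc38a3, Gsta3, Hp and a pair of overlapping events of Ahsg. Slc38a3, the glutamine transporter of hepatocytes, had an 89-base exon at chr9:107667304-107667392 at 76.6%, 79.2% and 72.6% in fasted Lpin1+/+ and at 94.8%, 85.1% and 89.7% in fasted Lpin1-/-. After refeeding it was at 79.6%, 93.2% and 78.6% in Lpin1+/+ and at 67.5%, 65.1% and 60.9% in Lpin1-/-. The genotypes were thus apart in both states but in opposite order (log2 term -2.69 ± 0.38 SE, adjusted p = 1.01e-08).

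The others of the 5 were exons of abundant transcripts included in few reads, with levels below 3% in every library. The longer Ahsg event was at 0.24%, 0.18% and 0.046% in fasted Lpin1+/+, 0.034%, 0.036% and 0.063% in fasted Lpin1-/-, 0.20%, 0.10% and 0.063% in refed Lpin1+/+ and 0.28%, 0.25% and 0.26% in refed Lpin1-/-. Gsta3, a glutathione transferase with close copies, had means of 0.47% and 0.040% in fasted liver and 1.23% and 1.51% in refed liver.

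Chosen after their values were seen, Smek2, Taf6l and Slco2b1 had large fasted differences and passed this test. Smek2, a regulatory subunit of protein phosphatase 4, was at 2.24%, 1.35% and 1.12% in fasted Lpin1+/+, at 60.8%, 81.8% and 36.4% in fasted Lpin1-/- and at or below 4.47% in all 6 refed libraries (adjusted p of the term 5.05e-05). Taf6l, a subunit of histone acetyltransferase complexes, was at 88.7% ± 2.98 and 44.6% ± 1.23 in fasted liver and at 81.1% and 84.3% in refed liver (adjusted p = 7.50e-05). Slco2b1, an organic anion uptake carrier, was at 1.75% ± 0.91 and 21.9% ± 5.18 in fasted liver and at 1.88% and 2.27% in refed liver (adjusted p = 0.0012). Zfp410, Anp32a and Cabin1 did not pass this test (adjusted p = 0.65, 0.83 and 1), although their differences in percentage points changed by 50.2 to 59.6 between the states. In refed Lpin1+/+, inclusion reads were 0, 3 and 0 for Zfp410 and 0, 0 and 0 for Cabin1, and skipping reads of Anp32a were 3, 0 and 0. With so few reads the SE of the log2 term was 2.74, 4.34 and 2.43, so the test cannot decide for these 3 exons. The count of 77 was 5 with limma and weights, and 132 without the fasted Lpin1-/- library at list position 3. It was 15 in a new fit of only the events with a mean of at least 5 reads of the rarer form over the 12 libraries. Of the 77 themselves, 72 had at least 5 such reads per library over the 6 fasted libraries. The count was 51 without fasted Lpin1+/+ position 3, 40 without refed Lpin1+/+ position 2 and 48 without refed Lpin1-/- position 2.

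**Figure D5:**
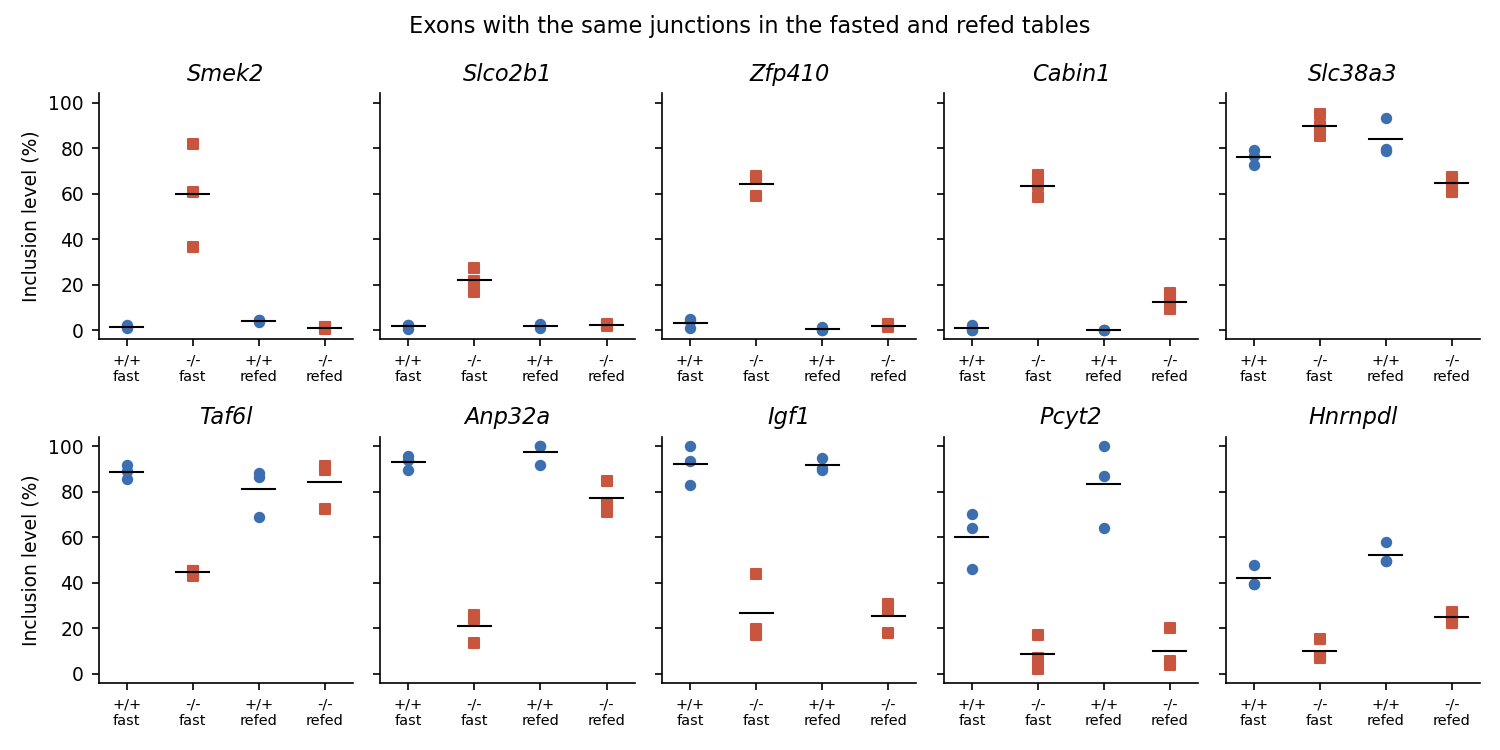
Inclusion level (vertical axis, percent) of 10 exons with the same junctions in both tables, in the 3 libraries of each of the 4 groups (horizontal axis). Circles are Lpin1+/+, squares Lpin1-/-, and bars are group means. Smek2 stands at 36.4% to 81.8% in fasted Lpin1-/- and at or below 4.47% in the other groups, while Igf1 is apart by genotype in both feeding states.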

How the data were processed

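The authors aligned paired reads from stranded libraries to GRCm38 with an Ensembl annotation using HISAT2 2.0.5, counted genes with HTSeq 0.6.0 and tested them with DESeq2 1.20.0, per the labels and the study's methods. They deposited RPKM values per gene and rMATS skipped exon tables, whose version is not given in the sources used here. The deposited event tables hold inclusion and skipping read counts on exons and junctions per library, as lists of 3 without replicate numbers ("list position"). Columns of the authors' own p-values and fold changes were not used, and neither were their subset tables of called events, except that 230 of these events were also found in the subset for refeeding of Lpin1+/+.

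Members and gene lists were chosen with earlier results of these data known. Events were matched between the tables on 6 exon coordinates, chromosome and strand. Counts per event were tested with a quasi-binomial model, its dispersion moderated with limma 3.58.1 in R 4.3.3 and the rarer-form mean as covariate, in place of rMATS, which was not run here. Limma on the log2 ratio of the forms was an alternative. Odds ratios carry 0.5 added to each count, and their SE was taken from the test statistic. RPKM was tested as log2(RPKM + 1) with limma in a single fit of the 12 libraries, on genes averaging 0.5 RPKM or more, and such fold changes understate low genes. Adjusted p-values follow Benjamini and Hochberg, with a threshold of 0.05, over all events or genes of a fit. p-values are two-sided. Both tests were tried on simulated data. Alternatives were other tests, count minimums, 1 event per exon, scaling, a replicate block and leaving out each library.

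Genes were named by a rule: from called events with at least 5 reads of the rarer form and no overlap between genotypes, 1 event a gene, the 10 with the largest difference in each direction and the 5 largest whose exon is in no refed event; up to 4 genes from each of 12 lists, by the largest difference among called events with at least 5 such reads, overlap allowed; and the 5 events with the smallest p for genotype by feeding. Exon annotation and sequence are those of GENCODE M21 (C57BL/6J), while the mice were BALB/cByJ. Read counts give the precision of each value, and their error does not include differences between mice.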

Additional observations from a re-analysis of the deposited data

Results flagged for a closer look

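Genotype by feeding was past the threshold in 77 of 7986 events (0.96%) listed only in the fasted table and followed into refed liver. Over all 36433 paired events the share was 1.02%, so it was no higher than the background. In a called event the genotype difference itself differed between fasted and refed liver. The 5 with the smallest p are given here by the log2 ratio of the refed odds ratio (Lpin1-/- over Lpin1+/+) to the fasted one. It was 3.02 for the 95-base Ahsg event and 2.37 for the 81-base Ahsg event, which share an exon end and so share reads. Hp, haptoglobin, had 6.04 at an exon with levels at or below 0.096% in all 12 libraries. Gsta3 had 3.62. Slc38a3 had -2.69 and was the only one of the 5 with levels above 3%. Groups of 3 libraries were too small for the search for single libraries far from the others.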

How the results depend on the processing

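Over the 47 values recomputed without leaving out a library, 33 stayed within 1.5 times the reported count. The 3968 called events came to 1334 with limma and precision weights and to 1299 with a difference of at least 10 points, and ranged from 2180 to 4722 with 1 library left out. The 614 refed calls came to 179 with limma on the log2 ratio, 219 with weights and 110 with at least 10 points, and to 353 to 589 with 1 library left out. The 77 genotype by feeding calls came to 30, 5 and 26 under the same changes, with 40 to 132 when a library was left out. They came to 15 in a new fit of only the events with at least 5 reads of the rarer form. Host genes between fasted genotypes came to 149 with only the 6 libraries compared (346 reported), and to 164 to 357 with 1 library left out. Host genes between refed and fasted liver came in Lpin1+/+ to 46 after rescaling, 55 with the replicate block and 0 with only the 6 libraries compared (126 reported), ranging from 14 to 147, and in Lpin1-/- ranged from 699 to 2051 (1536 reported). The cause of these moves was not tested, except that the size limits remove events by construction.

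The replicate block gave 297 and 1272 for the other host gene counts. Deviations of same-numbered libraries correlated from -0.47 to 0.30, with all 3 pairs negative between fasted genotypes (-0.47 to -0.23) and all 3 positive between refed genotypes (0.16 to 0.30). In the comparisons made here not every pair was above 0.1, so the numbers were not taken as pairs. The event tables carry no replicate number, so no paired fit of events was made. Matching the tables on the exon alone left 26580 events, and 32833 with exon and inner junctions. An event needs about 1 read of the rarer form per library before this test can call it at this depth.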
